A study of Mus musculus with 15 samples.

Results

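The 53 DNA replication and S phase genes described here are those whose symbols stand in a fixed list of replication factors, nucleotide-synthesis enzymes, chromatin-copying factors and S phase regulators. All 53 were found among the 23996 genes of the expression table. They were measured by RNA-seq of polyadenylated RNA in bone marrow-derived macrophages (BMDM), which were grown from C57BL/6 mouse bone marrow in medium holding M-CSF from L929 cells. The groups were Nelfb KO BMDM (Nelfbfl/fl, Lyz2-Cre) at rest and after 0.5 h of LPS at 10 ng/ml, and WT BMDM (Nelfb+/+, Lyz2-Cre) at rest and after 0.5 h and 1 h of LPS, with 3 libraries in each of the 5 groups. Both genotypes carried Lyz2-Cre, in which the Lyz2 locus drives Cre in myeloid cells, and Nelfb KO BMDM at 1 h were not analysed here. Each gene has 1 FPKM value per group, averaged by the authors over its libraries. Values of single libraries were not analysed here and the test columns of the table were not used, so the differences are given without SD, replicate check or test.

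DNA replication starts with licensing, in which the origin recognition complex, Cdc6 and Cdt1 load the MCM helicase onto DNA. Cdc45 and the GINS complex then activate the helicase, and polymerases copy DNA with the sliding clamp PCNA, while thymidine and ribonucleotide pathways supply the nucleotides. Transcription of many of these genes is raised before and during S phase by E2F factors, which RB family proteins hold in check. Macrophages grown from bone marrow divide in response to M-CSF, so their RNA holds replication transcripts at rest. NELF is a complex that holds RNA polymerase II near promoters, and Nelfb encodes its B subunit.

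Over the 5 groups, FPKM summed over all genes ranged from 511973 to 615071, and 10367 to 10441 genes had at least 1 FPKM. Depth per library is unknown here, so no counting error can be given. Nelfb, the deleted gene, had 5.65 and 5.55 FPKM in Nelfb KO at rest and at 0.5 h, against 21.9, 19.7 and 17.5 FPKM in WT at rest, 0.5 h and 1 h. All 12 macrophage markers found in the table passed the filter on low values, and they summed to 7300 and 7413 FPKM in Nelfb KO and to 7682, 6718 and 7655 FPKM in WT. By the limits given below for the 53 genes, 2 of the 12 were higher in Nelfb KO at rest, 1 was higher at 0.5 h and 0 were lower. Among all genes passing the filter, 1.63% were higher and 3.61% lower at rest, and 2.03% and 1.36% at 0.5 h. Lyz2, the locus that carries Cre, had log2 ratios of Nelfb KO to WT of 1.04 at rest and 1.22 at 0.5 h, Mertk had 0.73 and 0.35, and C1qa, at the other end, had -0.57 and -0.08. The progenitor markers summed to 1.89 and 1.87 FPKM in Nelfb KO and to 1.96, 2.16 and 2.29 FPKM in WT, with Kit, Flt3 and Gata2 each averaging under 0.5 FPKM. The erythroid markers summed to less than 0.8 FPKM in every group. Of the 10 markers of neutrophils and their precursors in the table, 8 averaged under 0.5 FPKM, among them Mpo and Elane, while the list summed to 124 and 135 FPKM in Nelfb KO and to 101, 74.6 and 82.0 FPKM in WT, nearly all of it from S100a8. The part of these markers in the results was not tested. The resting WT group stood apart by transcript length. Across 11177 genes, Spearman's rho between transcript length and the log2 ratio of WT at 0.5 h to WT at rest was 0.617 (genes are not independent replicates). The same rho was -0.088 between the Nelfb KO groups, 0.5 h over rest. Ratios at rest are therefore set beside those at 0.5 h, which do not use resting WT.

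The first question was whether loss of Nelfb left the replication transcripts at their WT level. All 53 genes had a lower average in Nelfb KO than in WT, both at rest and at 0.5 h of LPS. Because genes and lists were chosen with earlier results of these data known, this shared direction is a description and not a test. A filter on low values kept 11258 genes whose mean over the groups reached 0.5 FPKM, and all 53 passed it. Of the kept genes 53% had a lower average in Nelfb KO at rest, 45.8% at 0.5 h and 30.5% at both times. The median log2 ratio of Nelfb KO to WT, taken from FPKM + 1 throughout, was -0.70 at rest and -0.59 at 0.5 h over the 53 genes. Over all kept genes it was -0.02 and 0.01. Genes were called lower at a ratio of FPKM + 1 of at most 0.6 and higher at 1.4 or more, the limits of the study without its p-values. At rest 23 of the 53 were called lower and 0 higher, beside 3.61% lower and 1.63% higher of all kept genes. At 0.5 h 15 were lower and 0 higher, beside 1.36% lower and 2.03% higher. The comparisons at rest and at 0.5 h share no libraries, and 14 genes were called lower in both, beside 0.879% of all kept genes. The replicate labels do not say whether libraries of both times came from the same mice or cultures. For 52 of the 53 genes both Nelfb KO averages lay below all 3 WT averages, which held for 21.7% of all kept genes. Gins3 was the exception, with 1.64 and 1.57 FPKM in Nelfb KO, against 2.2, 2.26 and 1.31 FPKM in WT. In these bulk samples, fewer cells in S phase and less RNA of these genes per cell cannot be told apart.

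**Figure D1:**
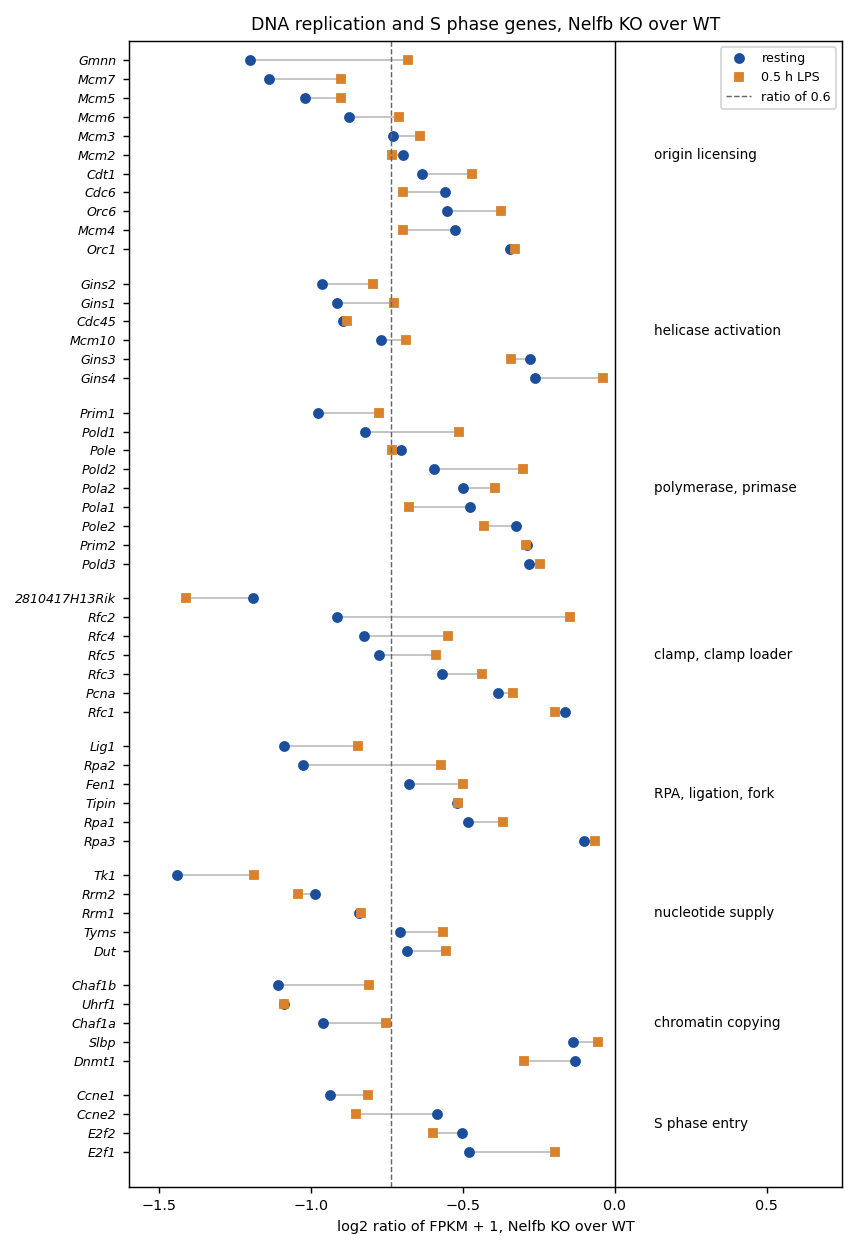
Log2 ratio of FPKM + 1, Nelfb KO over WT, for the 53 genes grouped by role, at rest (circles) and after 0.5 h of LPS (squares), with a dashed line at the ratio of 0.6 used to call a gene lower. Each point is 1 ratio of group averages without an error bar, and every point lies left of 0, from -1.44 for Tk1 at rest to -0.04 for Gins4 at 0.5 h.

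The MCM subunits, Mcm2 to Mcm7, form the ring of the replicative helicase. Their FPKM values summed to 75.8 in Nelfb KO at rest and 75.8 in Nelfb KO at 0.5 h, against 142 in resting WT, 132 in WT at 0.5 h and 130 in WT at 1 h. The Nelfb KO sum was 53.4% of WT at rest and 57.5% at 0.5 h. Mcm7 had 10.3 and 10.2 FPKM in Nelfb KO, against 24.0, 20.01 and 19.3 FPKM in WT (log2 ratio -1.14 at rest and -0.90 at 0.5 h). Exons of Mcm7 share 64 bases with Cops6 and 321 with Ap4m1 on the opposite strand, so its FPKM is uncertain. Mcm5 had 9.69 and 9.80 FPKM in Nelfb KO, against 20.7, 19.2 and 19.1 FPKM in WT (log2 ratio -1.02 and -0.90). Mcm5 and Mcm7 were called lower at both times, and Mcm6 at rest alone. Mcm6, the subunit with the most FPKM in every group, had 25.1 and 24.9 FPKM in Nelfb KO, against 46.9, 41.4 and 40.9 FPKM in WT. Mcm3 had 14.3 and 14.7 FPKM in Nelfb KO, against 24.4, 23.6 and 22.8 FPKM in WT. The smallest values belonged to Mcm2, with 7.34 and 7.42 FPKM in Nelfb KO, against 12.5, 13 and 12.8 FPKM in WT, and its log2 ratios of -0.70 and -0.73 missed the limit. Mcm4 had 8.97 and 8.74 FPKM in Nelfb KO, against 13.3, 14.8 and 15.3 FPKM in WT. For each of the 6 subunits both Nelfb KO averages lay below the lowest WT average.

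**Figure D2:**
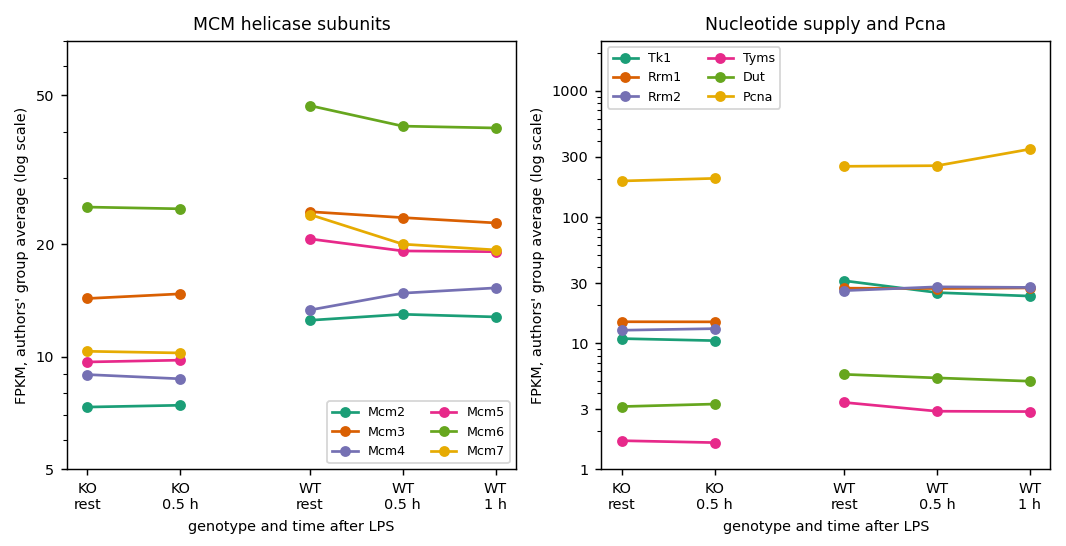
FPKM, the authors' group averages, on a log axis in Nelfb KO at rest and 0.5 h of LPS and in WT at rest, 0.5 h and 1 h, for Mcm2 to Mcm7 on the left and for the nucleotide-supply genes and Pcna on the right. Each point is the average of 3 libraries without an error bar. Each gene sits lower in both Nelfb KO groups than in the 3 WT groups, and Pcna has its highest value in WT at 1 h, 346 FPKM.

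Genes for proteins that load and restrain the MCM ring differed between genotypes by unequal amounts. Gmnn encodes geminin, the inhibitor that keeps Cdt1 from reloading MCM after origins have fired. It had 15.6 and 16.9 FPKM in Nelfb KO, against 37.1, 27.6 and 25.7 FPKM in WT (log2 ratio -1.20 at rest and -0.68 at 0.5 h). It was called lower at rest, and its WT average was itself highest at rest. Cdt1 had 15.9 and 15.8 FPKM in Nelfb KO, against 25.2, 22.3 and 18.5 FPKM in WT. Cdc6, the loading ATPase, had 0.889 and 0.923 FPKM in Nelfb KO, against 1.78, 2.12 and 2.08 FPKM in WT. Orc6, an origin recognition subunit, had 5.07 and 5.56 FPKM in Nelfb KO, against 7.89, 7.51 and 7.93 FPKM in WT, and Orc1, the other one among the 53, had a log2 ratio of -0.34 at rest and -0.33 at 0.5 h. Because 1 FPKM is added to each value, the ratio understates differences of genes as low as Orc1 and Cdc6, whose FPKM in Nelfb KO were 53.2% and 49.8% of WT at rest.

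The RefSeq promoter windows (GRCm38.p6, 250 bases before to 50 bases after each start) were searched on both strands for TTTNNCGC. N stands for any base, so these letters are a loose form of the E2F motif core. They were chosen because many genes of the set are known E2F targets. A window was found for 43 of the 53 genes (not for Gmnn, Mcm4, Gins1, Gins2, Gins4, Prim2, Pole, Rfc2, Tipin and Ccne2), of which 19 (44.2%) held the motif, as did 5.93% of 27025 genes with a window and 10% of 8834 kept genes with a window. CCAAT, the NF-Y motif, was in 27 of the 43 (62.8%), beside 43.2% of kept genes. TTTGAA, the core of the cell cycle homology region of mitotic genes, was in 7 of the 43 (16.3%), beside 14.4% of kept genes. In the Mcm7 window a TTTNNCGC match shares bases with a CCAAT match. The 19 genes with TTTNNCGC had a median log2 ratio, Nelfb KO over WT, of -0.64 at rest and -0.60 at 0.5 h, and the 24 without it had -0.73 and -0.56. Of the 19, 7 were called lower at rest and 5 at 0.5 h. Of the 24 it was 12 and 8, beside 3.61% and 1.36% of all kept genes. Among genes called lower at both times, Cdc45, Prim1, Tk1, Rrm1, Rrm2, Chaf1a, Chaf1b and Ccne1 had windows without these letters. The windows of the 3 MCM genes with the lowest ratios at rest are given with those of 2810417H13Rik and Uhrf1, which were called lower at both times, and of Tk1, which had the lowest ratio at rest and whose window does not hold these letters. Mcm7 and Uhrf1 have more than 1 window in RefSeq, and 1 is given for each. The Uhrf1 window not given also holds a TTTNNCGC match, and that of Mcm7 holds none. Capitals mark the TTTNNCGC matches and their reverse complements, and the sequences run 5′ to 3′ on the strand of the gene.
Mcm5 (chr8:75109259-75109558, plus strand): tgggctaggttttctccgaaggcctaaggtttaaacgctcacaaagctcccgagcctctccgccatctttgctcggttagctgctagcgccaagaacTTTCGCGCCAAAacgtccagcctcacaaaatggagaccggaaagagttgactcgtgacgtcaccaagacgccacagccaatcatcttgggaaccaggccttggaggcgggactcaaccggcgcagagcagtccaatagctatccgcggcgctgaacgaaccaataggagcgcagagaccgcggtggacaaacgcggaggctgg
Mcm6 (chr1:128359656-128359955, minus strand): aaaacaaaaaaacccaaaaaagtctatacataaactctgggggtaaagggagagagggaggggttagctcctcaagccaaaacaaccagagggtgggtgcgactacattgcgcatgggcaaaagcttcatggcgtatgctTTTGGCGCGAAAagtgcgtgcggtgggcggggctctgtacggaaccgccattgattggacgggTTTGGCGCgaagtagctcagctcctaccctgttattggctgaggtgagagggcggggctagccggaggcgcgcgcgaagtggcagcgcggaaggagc
Mcm7 (chr5:138171834-138172133, minus strand): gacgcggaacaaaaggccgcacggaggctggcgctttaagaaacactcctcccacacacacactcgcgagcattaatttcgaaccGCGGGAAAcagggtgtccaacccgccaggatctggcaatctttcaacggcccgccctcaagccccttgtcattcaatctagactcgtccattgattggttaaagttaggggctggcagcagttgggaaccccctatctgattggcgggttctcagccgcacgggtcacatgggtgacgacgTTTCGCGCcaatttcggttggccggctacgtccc
2810417H13Rik (chr9:65890073-65890372, plus strand): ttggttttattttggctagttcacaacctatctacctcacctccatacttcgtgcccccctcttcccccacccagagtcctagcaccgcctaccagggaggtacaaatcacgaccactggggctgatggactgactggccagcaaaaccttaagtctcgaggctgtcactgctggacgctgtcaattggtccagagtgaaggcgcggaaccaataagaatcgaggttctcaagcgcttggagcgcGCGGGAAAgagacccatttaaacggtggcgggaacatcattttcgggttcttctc
Uhrf1 (chr17:56303087-56303386, plus strand): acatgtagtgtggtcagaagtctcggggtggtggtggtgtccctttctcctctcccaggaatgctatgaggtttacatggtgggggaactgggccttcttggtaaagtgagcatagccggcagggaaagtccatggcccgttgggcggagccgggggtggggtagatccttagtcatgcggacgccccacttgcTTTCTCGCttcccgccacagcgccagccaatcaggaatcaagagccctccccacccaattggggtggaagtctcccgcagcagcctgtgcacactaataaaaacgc
Tk1 (chr11:117825965-117826264, minus strand): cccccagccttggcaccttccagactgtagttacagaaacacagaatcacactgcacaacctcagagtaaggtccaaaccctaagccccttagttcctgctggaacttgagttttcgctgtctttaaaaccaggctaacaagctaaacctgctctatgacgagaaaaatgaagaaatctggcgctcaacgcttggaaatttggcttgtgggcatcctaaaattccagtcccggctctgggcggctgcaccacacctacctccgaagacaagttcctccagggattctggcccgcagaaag

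Of the 6 genes of helicase activation, 4 were called lower at rest and 2 at 0.5 h, beside 3.61% and 1.36% of all kept genes. GINS is a complex of 4 subunits that joins Cdc45 on the MCM ring. Gins2 had 8.88 and 8.45 FPKM in Nelfb KO, against 18.3, 15.4 and 14.4 FPKM in WT (log2 ratio -0.96 at rest and -0.80 at 0.5 h). Gins1 had 3.99 and 4.14 FPKM in Nelfb KO, against 8.39, 7.51 and 7.67 FPKM in WT (log2 ratio -0.91 and -0.73). Gins4, in contrast, had 17.1 and 16.8 FPKM in Nelfb KO, against 20.8, 17.3 and 17.4 FPKM in WT, and its log2 ratio at 0.5 h was -0.04. Exons of Gins2 share 2758 of their 4097 bases with Gse1 on the opposite strand, so its FPKM can hold reads of that gene. Cdc45 had 2.98 and 2.89 FPKM in Nelfb KO, against 6.39, 6.17 and 6.68 FPKM in WT, and was called lower at both times (log2 ratio -0.89 and -0.88). Exons of Cdc45 share 209 of 3506 bases with Ufd1 on the opposite strand, so its FPKM is uncertain as well. Mcm10, which helps to separate the double helicase, had 1.5 and 1.82 FPKM in Nelfb KO, against 3.26, 3.55 and 3.65 FPKM in WT.

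Among the 9 genes of polymerase alpha and primase, polymerase delta and polymerase epsilon, 2 were called lower at rest and 1 at 0.5 h. Of all kept genes 3.61% and 1.36% were. The median log2 ratio of the 9 was -0.50 and -0.43. Prim1, the catalytic primase subunit, had 2.94 and 3.31 FPKM in Nelfb KO, against 6.76, 6.37 and 5.90 FPKM in WT (log2 ratio -0.98 and -0.78). Its partner Prim2 had 6.04 and 6.10 FPKM in Nelfb KO, against 7.60, 7.70 and 8.2 FPKM in WT (log2 ratio -0.29 and -0.29). Pold1, the catalytic subunit of polymerase delta, had 5.14 and 5.24 FPKM in Nelfb KO, against 9.85, 7.91 and 7.46 FPKM in WT. Pole, the catalytic subunit of polymerase epsilon, had 0.826 and 0.885 FPKM in Nelfb KO, against 1.98, 2.13 and 2.13 FPKM in WT. The accessory subunit Pold3 had -0.28 at rest and -0.24 at 0.5 h, and Pole2 had -0.32 and -0.43.

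Pcna, the sliding clamp, had by far the most FPKM of the 53 genes. It had 193 and 203 FPKM in Nelfb KO, against 253, 256 and 346 FPKM in WT (log2 ratio -0.38 at rest and -0.33 at 0.5 h), and was not called lower. GENCODE M21 names the pseudogenes Pcna-ps1 and Pcna-ps2 for it and Tyms-ps for Tyms, so the FPKM of Pcna and Tyms are uncertain where reads map to more than their own locus. 2810417H13Rik, also named Pclaf, encodes a small protein that binds PCNA. It had 7.52 and 7.15 FPKM in Nelfb KO, against 18.4, 20.7 and 20.5 FPKM in WT (log2 ratio -1.19 at rest and -1.41 at 0.5 h), the lowest ratio of the 53 genes at 0.5 h. The clamp loader subunits Rfc1 to Rfc5 summed to 56.3 and 58.7 FPKM in Nelfb KO, against 96.0, 73.5 and 71.2 FPKM in WT. Among them the lowest ratio at rest was that of Rfc2, with 26.1 and 27.4 FPKM in Nelfb KO, against 50.1, 30.4 and 30.3 FPKM in WT. Rfc2 had a log2 ratio of -0.92 at rest and -0.15 at 0.5 h. Its exons share 952 bases with Lat2 on the opposite strand, and Lat2 had 86.3 and 88.1 FPKM in Nelfb KO, against 142, 109 and 106 FPKM in WT. The part of these reads in the FPKM of Rfc2 was not tested. Rfc1, the large subunit, had 10.9 and 11.1 FPKM in Nelfb KO, against 12.3, 12.8 and 12.8 FPKM in WT.

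The RPA trimer coats single-stranded DNA at the fork, and its subunit transcripts were not lower by like amounts. Rpa2 had 6.95 and 7.48 FPKM in Nelfb KO, against 15.2, 11.6 and 10.2 FPKM in WT, and was called lower at rest (log2 ratio -1.03 at rest and -0.57 at 0.5 h). Rpa1 had 16.3 and 16.9 FPKM in Nelfb KO, against 23.2, 22.1 and 21.9 FPKM in WT. Rpa3 had 8.98 and 9.59 FPKM in Nelfb KO, against 9.71, 10.1 and 10.6 FPKM in WT, and its log2 ratio of -0.10 was the closest to 0 at rest. Lig1, the ligase that seals Okazaki fragments, had 8.37 and 8.02 FPKM in Nelfb KO, against 18.9, 15.2 and 15.7 FPKM in WT, and was called lower at both times (log2 ratio -1.09 and -0.85). Fen1, the nuclease that trims their flaps, had 15.9 and 15.5 FPKM in Nelfb KO, against 26.0, 22.4 and 20.4 FPKM in WT. Exons of Fen1 share 1909 of their 2422 bases with the antisense gene Gm10143, so its FPKM is uncertain too. Tipin, a fork protection factor, had log2 ratios of -0.52 and -0.51.

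The 5 genes of nucleotide supply had the lowest summed level relative to WT of the 8 roles, 46.1% at rest and 48.8% at 0.5 h. By median log2 ratio, chromatin copying was the lowest role at rest, with -0.96 against -0.84 for nucleotide supply. At 0.5 h nucleotide supply was lowest by that measure too, with -0.84. Tk1 encodes the thymidine salvage kinase (GRCm38, chromosome 11, 117815526 to 117826092, minus strand). It had 10.9 and 10.5 FPKM in Nelfb KO, against 31.3, 25.2 and 23.7 FPKM in WT (log2 ratio -1.44 at rest and -1.19 at 0.5 h). Nelfb KO thus had 34.8% and 41.6% of the WT FPKM of Tk1. Rrm2, the regulatory subunit of ribonucleotide reductase, had 12.7 and 13.1 FPKM in Nelfb KO, against 26.1, 28.0 and 27.7 FPKM in WT (log2 ratio -0.99 and -1.04). Rrm1, its large subunit, had 14.8 and 14.8 FPKM in Nelfb KO, against 27.3, 27.2 and 27.5 FPKM in WT (log2 ratio -0.84 and -0.84). Tk1, Rrm1 and Rrm2 were called lower at both times. Tyms, which makes thymidylate, had 1.69 and 1.63 FPKM in Nelfb KO, against 3.4, 2.89 and 2.88 FPKM in WT. Dut, which clears dUTP, had 3.15 and 3.30 FPKM in Nelfb KO, against 5.67, 5.32 and 5.01 FPKM in WT.

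Of the genes that rebuild chromatin behind the fork, 3 of 5 were called lower at both times, beside 0.879% of all kept genes. Uhrf1, which recognises hemimethylated DNA and brings in Dnmt1, had 6.33 and 6.29 FPKM in Nelfb KO, against 14.6, 14.5 and 14.0 FPKM in WT (log2 ratio -1.09 at both times). Dnmt1, the maintenance DNA methyltransferase, differed little, with 21.7 and 21.7 FPKM in Nelfb KO, against 23.8, 26.9 and 26.3 FPKM in WT (log2 ratio -0.13 and -0.30). Chaf1b had 3.82 and 3.89 FPKM in Nelfb KO, against 9.41, 7.56 and 8.89 FPKM in WT (log2 ratio -1.11 and -0.81). It and Chaf1a encode subunits of the histone chaperone CAF-1. Chaf1a had 3.28 and 3.41 FPKM in Nelfb KO, against 7.33, 6.44 and 5.64 FPKM in WT. Its exons share 4648 of 8854 bases with Ubxn6 on the opposite strand, so its FPKM is uncertain. Slbp, which binds the stem-loop of histone transcripts, had 16.9 and 18.6 FPKM in Nelfb KO, against 18.7, 19.3 and 19.6 FPKM in WT.

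Of the 4 regulators of S phase entry, 1 was called lower at rest and 2 at 0.5 h, beside 3.61% and 1.36% of all kept genes. Ccne1 and Ccne2 encode cyclin E, the partner of CDK2. Ccne1 had 4.54 and 4.30 FPKM in Nelfb KO, against 9.61, 8.31 and 7.54 FPKM in WT (log2 ratio -0.94 at rest and -0.81 at 0.5 h). Ccne2 had 0.790 and 0.802 FPKM in Nelfb KO, against 1.69, 2.25 and 2.25 FPKM in WT, and was the 1 gene of the 53 called lower at 0.5 h alone (log2 ratio -0.59 and -0.85). Its exons share 609 of 3495 bases with Ints8 on the opposite strand, so its FPKM is uncertain. Ints8 had 5.78 and 6.17 FPKM in Nelfb KO, against 5.33, 5.95 and 6.43 FPKM in WT. E2f1 had 12.4 and 12.5 FPKM in Nelfb KO, against 17.6, 14.5 and 15 FPKM in WT (log2 ratio -0.48 and -0.20). E2f2 had 3.30 and 3.29 FPKM in Nelfb KO, against 5.09, 5.50 and 4.30 FPKM in WT. Both E2F genes missed the limit at both times.

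The genotype difference at rest was then set beside that at 0.5 h. The 2 sets of log2 ratios had, across the 53 genes, which share their libraries, a Pearson's r of 0.81 and a Spearman's rho of 0.80. The ratios lay within 0.2 of each other for 36 of the 53 genes. The ratio was closer to 0 at 0.5 h for 39 genes, and the median difference, 0.5 h minus rest, was 0.12, beside 0.02 over all kept genes. The 9 genes called lower at rest alone were Gmnn, Mcm6, Mcm10, Gins1, Pold1, Rfc2, Rfc4, Rfc5 and Rpa2. With WT at 0.5 h in place of resting WT as the reference, all 53 genes were still lower in resting Nelfb KO, with a median log2 ratio of -0.61. By that reference 19 genes were called lower, beside 1.87% of all kept genes, and 16 of these were among the 23 called against resting WT. Mcm6, Gins2, Pold1, Rfc2, Rfc4, Rfc5 and Rpa2 missed the limit, while Mcm2, Pole and Ccne2 passed it.

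**Figure D3:**
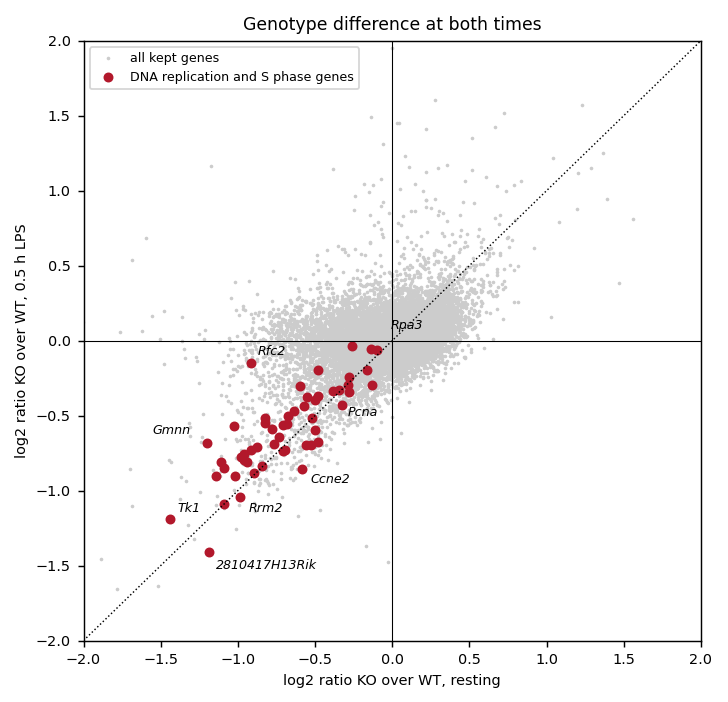
Log2 ratio of FPKM + 1, Nelfb KO over WT, at rest (horizontal) and after 0.5 h of LPS (vertical), for the 53 genes in red and all 11258 kept genes in gray, of which 91 lie outside the axes. All red points lie below 0 on both axes, spread along the dotted line of equal ratios, and Rfc2 lies farthest from it, at -0.92 and -0.15.

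Because short transcripts had more FPKM in resting WT than in the other groups, transcript length was examined next. The longest annotated transcript of the 53 genes had a median of 2755 nt, against 2989 nt for all kept genes with a length. The 24 genes of 3000 nt and over had a median log2 ratio, Nelfb KO over WT, of -0.71 at rest and -0.69 at 0.5 h, where all kept genes of that length had 0.08 and -0.01. The 8 genes under 1500 nt had -0.70 and -0.49, where all kept genes of that length had -0.29 and 0.07. With the trend over length removed, 21 genes were called lower at rest and 18 at 0.5 h, beside 1.84% and 1.5% of all genes with a length. At rest 51 genes were then below 0, and the other two, Rpa3 and Slbp, had log2 ratios of 0.27 and 0.01.

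The next question was whether LPS itself moved these genes. In Nelfb KO, 0 of the 53 were called higher or lower after 0.5 h of LPS relative to rest, beside 1.32% higher and 0.222% lower of all kept genes. The log2 ratios ran from -0.09 for Pola1 to 0.17 for Mcm10, with a median of 0.02. All 53 lay within 0.2 of 0, as did 96.1% of all kept genes. In WT at 0.5 h against resting WT 0 of the 53 were called, beside 1.09% higher and 2.07% lower of all kept genes (1.47% and 1.28% with quantile normalization, 1.46% and 0.626% with the length trend removed). The median log2 ratio was -0.07, and Rfc2 had the lowest value, -0.70. Within 0.2 of 0 lay 38 of the 53, beside 59.1% of all kept genes. In WT at 1 h against rest 0 of the 53 were called as well, beside 6.26% higher and 3.22% lower of all kept genes (6.18% and 1.36% with the length trend removed). The median was -0.10, and 31 of the 53 lay within 0.2 of 0, beside 46.4% of all kept genes. The highest value there was that of Pcna, 0.45, and other low values were -0.53 for Rpa2, -0.52 for Gmnn and -0.47 for Gins3. In WT at 1 h against 0.5 h 0 of the 53 were called, beside 4.17% higher and 0.693% lower of all kept genes. In that comparison Pcna had a log2 ratio of 0.43, Gins3 of -0.50, E2f2 of -0.29 and Cdt1 of -0.26. Of the 53 genes 48 lay within 0.2 of 0, beside 80.4% of all kept genes. Resting WT is shared by both comparisons of WT with rest and by the resting genotype comparison. A difference of the LPS response between genotypes was not tested, for want of values per library. The response of Nelfb KO minus that of WT had its highest values for Rfc2 (0.77), Gmnn (0.52) and Rpa2 (0.46), the genes with the lowest ratios in WT at 0.5 h against rest.

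**Figure D4:**
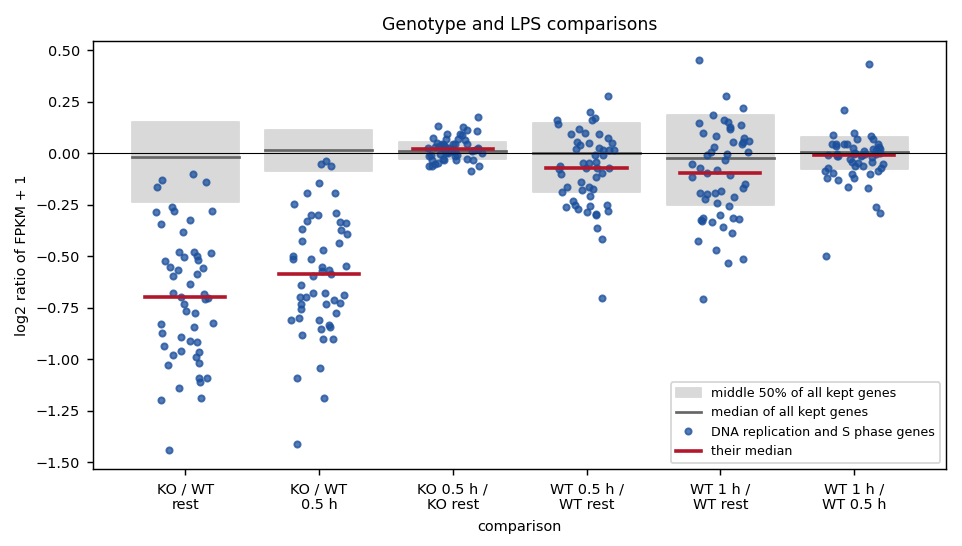
Log2 ratio of FPKM + 1 in 6 comparisons, with 1 point for each of the 53 genes, a red line at their median, and a gray box and line for the middle 50% and the median of all 11258 kept genes. Points lie below 0 in both Nelfb KO over WT comparisons, with medians of -0.70 and -0.59, and around 0 in the 4 LPS comparisons, with medians from -0.10 to 0.02.

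Other cell cycle genes were examined to place the 53 genes. Each count below stands beside 3.61% of all kept genes called lower at rest and 1.36% at 0.5 h. All 33 mitosis genes were lower in Nelfb KO at both times, with 23 called lower at rest and 26 at 0.5 h and a median log2 ratio of -0.82 at both. Among them Stmn1, a microtubule regulator, had 38.9 and 39.9 FPKM in Nelfb KO, against 127, 86.9 and 85.2 FPKM in WT. Birc5 (survivin) had -1.44 at rest and -0.81 at 0.5 h, and Spc25, a kinetochore subunit, had -1.16 and -0.86. Of 35 replication genes outside the 53, 28 had a lower average in Nelfb KO at rest and 29 at 0.5 h. Of these 35 genes, 5 were called lower at rest and 2 at 0.5 h, with medians of -0.30 and -0.26. Clspn, the fork checkpoint adaptor claspin, had -0.89 at rest and -0.95 at 0.5 h. The log2 ratios of the RNase H2 subunits differed between the times. Rnaseh2b had -0.99 at rest and -0.66 at 0.5 h, and Rnaseh2a had -0.91 and -0.21. Rnaseh2c, named after its values were seen, had -0.59 and 0.24. Resting WT was the high group: Rnaseh2a had 9.35 and 9.23 FPKM in Nelfb KO, against 18.5, 10.9 and 10.6 FPKM in WT. Rnaseh2c had 35.4 and 32.8 FPKM in Nelfb KO, against 53.8, 27.6 and 26.8 FPKM in WT. The origin recognition genes Orc2, Orc3, Orc4 and Orc5, named after their values were seen, had log2 ratios between -0.17 and 0.11 at rest and between -0.13 and 0.02 at 0.5 h. Of 21 repair genes of S phase, 4 were called lower at each time, with medians of -0.39 and -0.44. Ung, the uracil-DNA glycosylase, had a log2 ratio of -0.82 at rest and -0.67 at 0.5 h. Of 31 kept genes of the E2F and RB network, 1 was called lower at rest and 2 at 0.5 h, with medians of -0.23 and -0.16. The count at rest is near the share of all kept genes, 3.61%. Its lowest values at rest were those of Fbxo5 (-0.86, and -0.87 at 0.5 h), Mybl2 (-0.70 and -0.71) and E2f8 (-0.62 and -0.82). None of these lists held a gene called higher in either comparison, beside 1.63% of all kept genes at rest and 2.03% at 0.5 h. Of the other genes of NELF and its partner complex DSIF, Nelfe was called lower at rest, at a log2 ratio of -0.76, and had 0.02 at 0.5 h. Nelfe had 19.5 and 19.9 FPKM in Nelfb KO, against 33.7, 19.6 and 19.9 FPKM in WT, so resting WT alone stood apart. Supt4a, a DSIF subunit, had -0.35 at rest and 0.30 at 0.5 h.

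**Figure D5:**
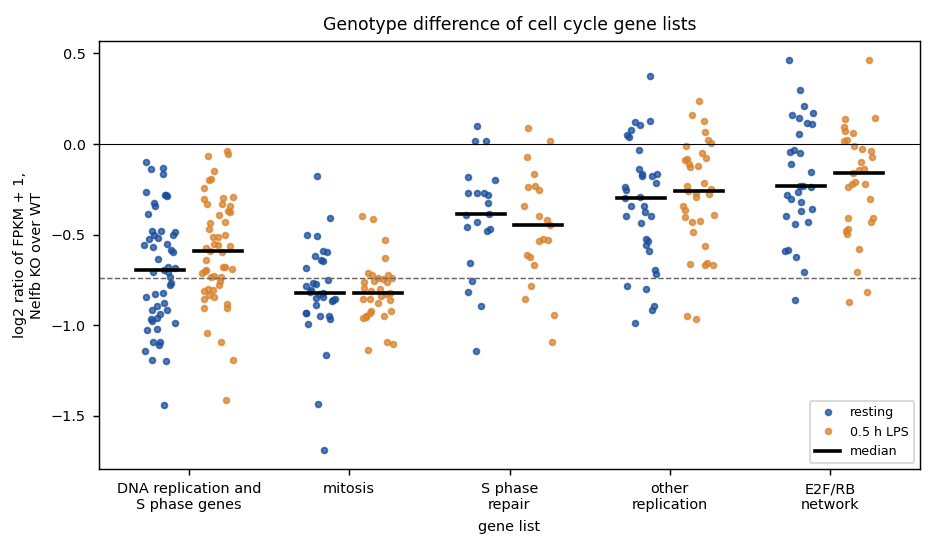
Log2 ratio of FPKM + 1, Nelfb KO over WT, at rest (blue) and after 0.5 h of LPS (orange), for the 53 genes and for 4 other gene lists, with 1 point per kept gene, a black line at each median and a dashed line at the ratio of 0.6. The medians at rest are -0.70 for the 53 genes, -0.82 for mitosis, -0.39 for S phase repair, -0.30 for other replication genes and -0.23 for the E2F and RB network.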

How the data were processed

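Labels of genotype and time placed 15 BMDM RNA-seq libraries in 5 groups of 3. Per the labels and methods, reads were called with CASAVA 1.8 and mapped to mm10 with TopHat2 2.1.0, keeping unique reads. From these the authors computed FPKM with Cuffdiff (Cufflinks 2.2.1), and each group has 1 deposited FPKM average per gene. The p-values, q-values and ratios of 4 comparisons by the authors, and 3 repeated columns of group values, were not used. Strandedness of the counting is not given in the sources used here. The planned model over libraries could not be run on averages, so genes were called by the ratio of FPKM + 1 (at least 1.4 or at most 0.6) among the 11258 genes that averaged 0.5 FPKM or more. Transcript lengths (99.3% of kept genes, 451 of them by an older symbol), positions and exon overlaps came from GENCODE M21 (GRCm38), and promoters from RefSeq. Exons of 17 of the 53 genes overlap those of another gene. These are Ccne2, Cdc45, Chaf1a, Fen1, Gins2, Lig1, Mcm7, Orc1, Orc6, Pole, Pole2, Rfc2, Rfc4, Rfc5, Rpa1, Slbp and Tk1. The FPKM of each can hold reads of the gene it overlaps, and the part of such reads was not tested. The trend over length was fitted by lowess with a fraction of 0.3. Genes given with all values are the 10 with the largest absolute log2 ratios at rest, the 5 with the largest in each other comparison and a fixed set (Mcm2 to Mcm7, Pcna, Rrm1, Rrm2, Tk1, Tyms, Nelfb). Of each other list, the 3 with the largest absolute log2 ratios at rest were named, apart from items of the repair list that are not reported here. Further genes of the 53 were added to describe each role. The genes and lists were chosen with earlier results of these data known. The arithmetic of the calls was tested on simulated data with known folds, which says nothing of their error. Python 3.11.15, numpy 2.4.6, pandas 2.3.3, statsmodels 0.14.6 and matplotlib 3.10.9 were used.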

Additional observations from a re-analysis of the deposited data

How the results depend on the processing

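All 53 genes were below 0 in both comparisons of Nelfb KO with WT under a pseudocount of 0.1, no filter, median scaling and quantile normalization. With the trend over transcript length removed, 51 were below 0 at rest and 53 at 0.5 h. The number called lower moved most with the limits of the ratio. With symmetric 2-fold limits it was 9 at rest and 4 at 0.5 h, beside 1.02% and 0.471% of all kept genes. With symmetric 1.5-fold limits it was 32 at rest and 27 at 0.5 h, beside 6.9% and 2.33%. A pseudocount of 0.1 gave 31 at rest and 23 at 0.5 h, beside 5.46% and 2.66%. It gave 1 called lower in WT at 1 h against 0.5 h, beside 1.98%. Among the 36 genes without exon overlap, an alternative chosen after seeing the data, 14 were lower at rest and 8 at 0.5 h. Of all kept genes 3.61% and 1.36% were. In WT against rest, 1 gene was lower at 0.5 h and 1 at 1 h with symmetric 1.5-fold limits, beside 4.44% and 6.67%. With the length trend removed it was 1 at 0.5 h and 1 at 1 h, beside 0.626% and 1.36%. In that setting 2 were higher at 1 h, beside 6.18%. Over all kept genes, calls at rest were 184 higher and 406 lower, against 328 and 279 with quantile normalization and 302 and 206 with the length trend removed. No paired analysis was possible because the values are group averages, and for the same reason no library could be left out. The repeated columns of group values were not run as an alternative. Depth is unknown, so it cannot be said which small differences of genes under 1 FPKM exceed counting error.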

Other observations

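In the E2F and RB network, Cdkn1b, which encodes the CDK inhibitor p27 and is named here after its values were seen, had 18.2 and 19.4 FPKM in Nelfb KO at rest and at 0.5 h, against 12.9, 13.8 and 14.0 FPKM in WT at rest, 0.5 h and 1 h. Its log2 ratio of 0.46 at each time was the highest of that list and stayed under the limit of 1.4. The other kept CDK inhibitor genes of the list did not share it. Cdkn1a, Cdkn1c, Cdkn2c and Cdkn2d had log2 ratios of -0.23, -0.37, -0.44 and -0.59 at rest. At 0.5 h they had 0.09, 0.06, -0.48 and -0.24. Ccnd1 (cyclin D1), also named after its values were seen, had 11.9 and 12.1 FPKM in Nelfb KO, against 18.3, 18.5 and 16.2 FPKM in WT. Rb1, which encodes RB, had log2 ratios of 0.21 at rest and -0.04 at 0.5 h.

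Within the GINS complex at 0.5 h, Nelfb KO had 55.2% of the WT FPKM of Gins1, 54.8% of Gins2, 69.7% of Gins3 and 97.2% of Gins4, and the value of Gins2 is uncertain from its overlap with Gse1. Within RPA it had 76.5% of Rpa1, 64.5% of Rpa2 and 95.2% of Rpa3. Without values per library it was not tested whether these gaps exceed the spread between replicates.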
